A study of Mus musculus with 6 samples.

Results

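The protein phosphatase genes described here are the catalytic and regulatory subunits of the PPP family, the small C-terminal domain phosphatases (Ctdsp) and the numbered dual-specificity phosphatases (Dusp). Members were chosen by symbol, with every symbol of the form Ppp followed by a catalytic or regulatory subunit number, every Ctdsp symbol and every Dusp symbol with a number, and Ppp1r15a was left out. This gave 88 of the 22609 genes listed in the count files. They comprise 11 catalytic subunits of the PPP family, 26 regulatory subunits of protein phosphatase 1 (PP1), 15 of protein phosphatase 2A (PP2A), 8 of the PP3, PP4 and PP6 holoenzymes, 4 Ctdsp genes, 10 MAP kinase phosphatases and 14 other Dusp genes. Ppp1r3f, Ppp1r3g and Ppp1r13l belong to the same families but fall outside the symbol rule.

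PPP enzymes remove phosphate from serine and threonine. A few catalytic subunits are shared by many holoenzymes, and the regulatory subunits set where each enzyme goes and what it acts on. In fat cells, PP1 and PP2A act on enzymes of glycogen and lipid metabolism that insulin and cAMP signaling control through phosphorylation, and calcineurin (PP3) links calcium to the transcription factors of the NFAT family. Ctdsp enzymes act on the C-terminal domain of RNA polymerase II and on SMAD proteins, and the MAP kinase phosphatases among the Dusp enzymes switch off ERK, JNK and p38.

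RNA was sequenced from primary cultured iWAT, cells of the inguinal fat stromal vascular fraction (SVF) that were differentiated in culture, to learn which transcripts change when miR-182-5p is raised. Per the labels, the cells came from male C57BL6 mice aged 3 weeks, and all 6 samples were electroporated. The 3 control samples carried the control vector and the 3 miR-182-5p samples carried miR182 overexpression, whereas the study's methods describe a synthetic mimic given with a lipid reagent and mice of another age. The labels do not say whether samples of a group came from separate cultures or animals, so p-values measure the spread between these samples, which may be technical.

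A microRNA pairs with transcripts mainly through its bases 2 to 8, the seed, so the 7-base match to that stretch was looked up in the longest annotated 3′-UTR of each member (GENCODE M21, GRCm38). The mature miR-182-5p from RefSeq (GRCm38.p6, chr6:30165962-30165986, minus strand, 25 bases) is printed here with the seed in capitals, followed by the matches in the 5 members that carry one and differed by at least 1.5-fold, with the 7 matching bases in capitals.
mmu-miR-182-5p: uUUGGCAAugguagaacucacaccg
Ctdsp1: catgtttctctgTTGCCAAattgggcc
Ppp1r1a: accagtgagggtTTGCCAAagcgccat
Ppp3r1, first match: agttcagtgctgTTGCCAAgagtgggt
Ppp3r1, second match: aaaaagatgatgTTGCCAAactttgga
Ctdsp2: ctcttacttgatTTGCCAAatgcctcc
Dusp8: ccacacctcaaaTTGCCAAgtcttagt
Counted from the first base of the 3′-UTR, the match lay at bases 275 to 281 of 1701 in Ctdsp1, 376 to 382 of 665 in Ppp1r1a, 701 to 707 and 1616 to 1622 of 2069 in Ppp3r1, 1088 to 1094 of 3489 in Ctdsp2 and 579 to 585 of 2370 in Dusp8. In Ctdsp1, Ppp1r1a, Ctdsp2 and the second match of Ppp3r1, the 7 bases were followed by an A, which makes the longer 8-base match.

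The libraries held 25869810 to 28796712 reads on genes. The first principal component, with 64.4% of the variance, separated the groups. On the second component miR-182-5p replicate 1 stood apart from the other treated samples (-13.5 against 7.83 and 7.56), and its counts differed from theirs by a chi-square per degree of freedom of 4.99 and 7.18, against 2.12 between the other two. The same 9 members reported below as called were called without that sample. Reads on the Mir182 hairpin gene were 0 in every sample, and libraries made from poly(A) RNA do not show the mature microRNA, so its level is not checked by these files. Adipocyte markers were present in all samples, but their summed level, in reads scaled to library size (CPM), ranged from 6078 to 6420 in the control samples and from 4226 to 4798 CPM with miR-182-5p. Of the 8 adipocyte markers, 5 fell, Lep rose, and Plin1 and Lipe did not pass, with overlapping values. Fabp4 carried most of the fall in the sum, from 3315.5 to 2067.1 CPM on average. Fibroblast and progenitor markers summed to 39170 to 40938 CPM against 34382 to 35565 CPM, with 4 of 5 tested lower. Most of this sum was Col3a1, at 19711 against 15750 CPM on average, and Col1a1, at 19248 against 18643 CPM with overlapping values. Smooth muscle markers summed to 3446 to 3619 CPM against 4123 to 4490 CPM, with 3 of 4 higher. Most of this sum was Acta2, at 2364 against 2891 CPM on average, and Tagln, at 1123 against 1277 CPM. Cnn1 stood at 55.5 against 63.9 CPM, and Myh11, at 18.1 against 17.9 CPM with overlapping values, did not pass. The low sums were 12.6 to 14.1 CPM against 11.5 to 14.0 CPM for 6 macrophage markers. For 4 endothelial markers they were 7.78 to 9.15 CPM against 4.97 to 5.49 CPM. Tek carried most of that fall, from 6.05 to 2.43 CPM on average. Kdr stood at 1.59 against 2.14 CPM, Cdh5 at 0.554 against 0.503 CPM and Pecam1 at 0.168 against 0.226 CPM. The sums were 22.6 to 23.0 CPM against 31.2 to 35.6 CPM for 6 skeletal muscle markers. Of these, Myh4 and Ckm were at 0, Acta1 rose and Actn3 fell. The part of these shifts in the results below was not tested, and in bulk samples fewer cells of a type and less RNA per cell cannot be told apart.

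Most phosphatase genes moved little, and a small set led by Ctdsp1 moved clearly. Of the 88 members, 74 had enough reads to be tested, and the other 14 had at most 9 reads in any sample (Dusp2, Dusp13, Dusp21, Dusp26, Dusp27, Ppp1r14c, Ppp1r14d, Ppp1r16b, Ppp1r1b, Ppp1r1c, Ppp2r2b, Ppp2r2c, Ppp2r3d and Ppp3r2). A gene is called changed here when it differed by at least 1.5-fold, a log2 fold change of 0.585, with an adjusted p under 0.05 over all 13117 genes tested. By this rule 9 of 74 members were called (12.2%), against 977 of all genes tested (7.45%). Ctdsp2, Dusp8 and Ppp1r3a were called higher, where 1.97% of all genes were, and Ctdsp1, Ctdspl, Ppp1r1a, Ppp1r3c, Ppp1ca and Ppp3r1 were called lower, where 5.48% of all genes were. Ppp1r3a passed the read filter only with the treated samples, where it was high, so its call adds no support to these counts. By the adjusted p alone, 21 members rose, 15 fell and 38 did not pass (48.6% passed in either direction), and over all genes 23.2% rose and 23.5% fell. The values of the 2 groups did not overlap in 40 members (54.1%), close to the 54.8% of all genes tested. The median log2 fold change was 0.03 over the members tested and -0.00 over all genes, and the members ranged from -1.23 to 1.38. DESeq2 and limma called the same 9 members. With 3 samples against 3, an exact two-sided permutation test of one gene cannot give a p below 0.1.

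**Figure D1:**
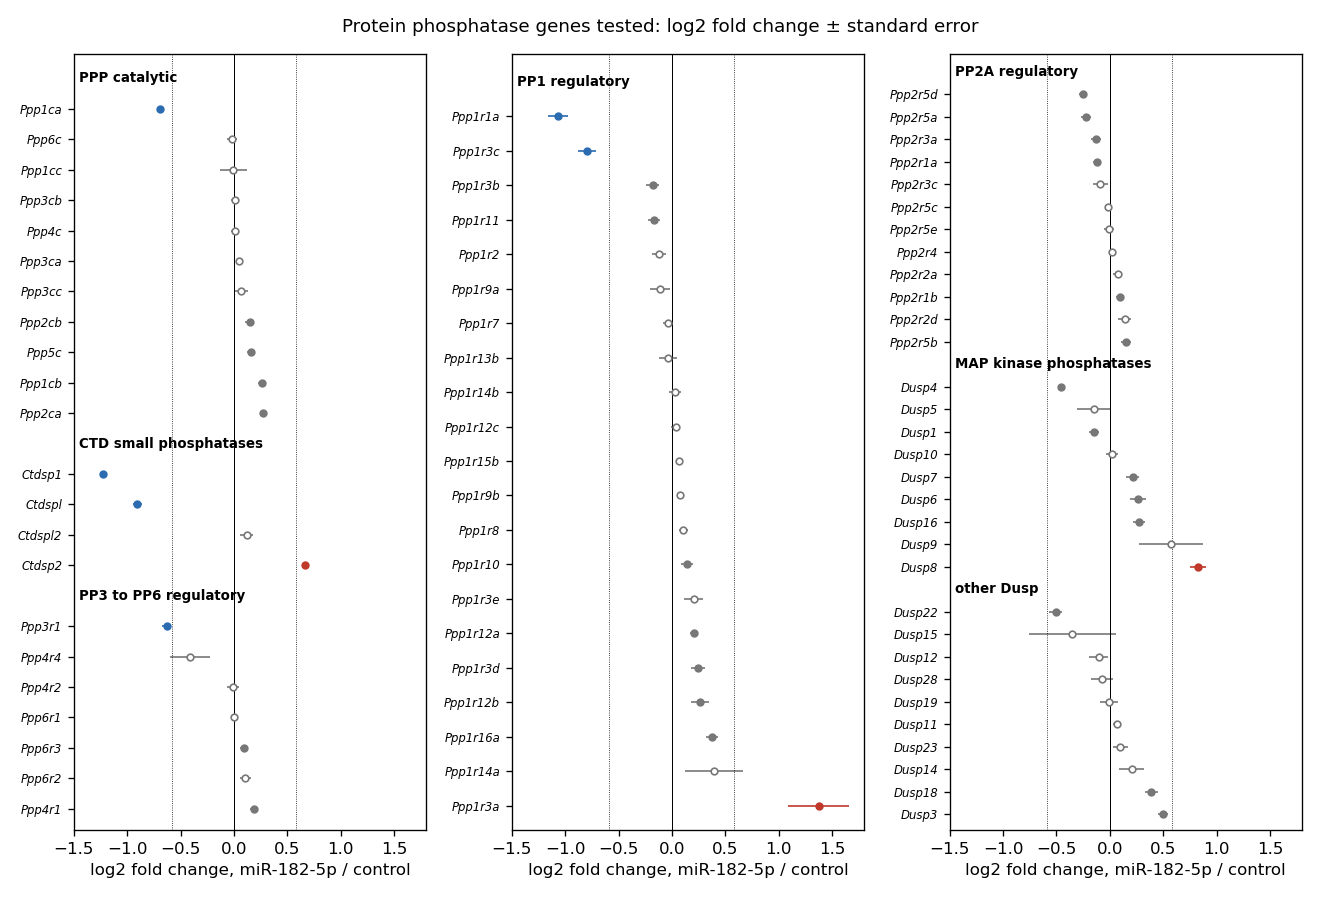
Log2 fold change of miR-182-5p over control (x axis) for the 74 members tested, by group, with bars for the standard error. Filled points passed the adjusted p, blue and red points were also lower or higher by 1.5-fold (dotted lines, 0.585 on the log2 scale to either side of 0), and most points lie near 0 while Ctdsp1 at -1.23 and Ppp1r3a at 1.38 mark the ends.

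**Figure D2:**
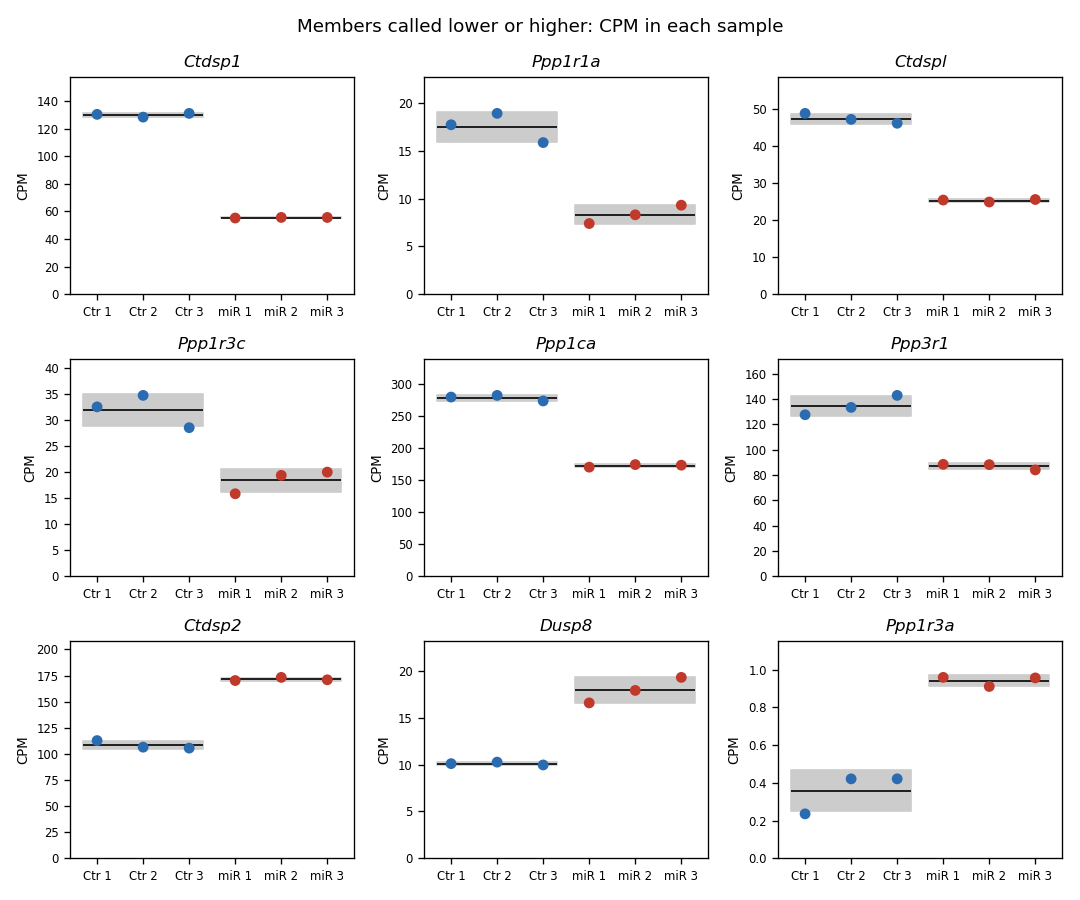
CPM in each of the 3 control (Ctr) and 3 miR-182-5p (miR) samples for the 9 members called, with the group mean as a line and 1 SD as a grey band. In each panel the 2 groups are apart, and Ppp1r3a is below 1 CPM in all samples.

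The 4 Ctdsp genes split in direction. Ctdsp1 (chr1:74391509-74397285, GRCm38) encodes SCP1, a phosphatase of the RNA polymerase II C-terminal domain that works with the repressor REST. Its reads numbered 3317, 3351 and 3418 in the control samples and 1613, 1467 and 1571 with miR-182-5p. All miR-182-5p samples were far below all control samples. In CPM it stood at 130 ± 1.38 against 55.5 ± 0.237 (SD, n = 3), and the log2 fold change was -1.23 ± 0.031 (SE) with an adjusted p of 1.98e-12. Among the members it had the smallest adjusted p.

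Ctdspl (chr9:118926453-119043998), which encodes SCP3, moved the same way without a seed match in its 3′-UTR. It had 1242, 1232 and 1204 reads in the controls and 742, 656 and 722 with miR-182-5p, and the groups were well apart. The log2 fold change was -0.90 ± 0.047 with an adjusted p of 2.32e-09. Ctdsp2 (chr10:126978717-126999975), which encodes SCP2, went the other way, and its 3′-UTR holds the 8-base match. Its reads were 2869, 2778 and 2753 against 4969, 4563 and 4826, so every miR-182-5p sample was higher. The log2 fold change was 0.66 ± 0.031 with an adjusted p of 9.82e-10. The more distant Ctdspl2 had 506, 476 and 539 reads against 600, 568 and 610, and its log2 fold change of 0.12 ± 0.061 did not pass the test (adjusted p = 0.136), with overlapping CPM values.

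Because the changes were opposite, the make-up of the Ctdsp reads turned over more than their sum. Ctdsp1 took 41.8%, 42.8% and 43.2% of the reads of the 4 genes in the control samples and 20.4%, 20.2% and 20.3% with miR-182-5p. Ctdsp2 went from 36.2%, 35.4% and 34.8% to 62.7%, 62.9% and 62.4%. In the controls Ctdsp1 was the larger of the pair, and with miR-182-5p Ctdsp2 was, in each sample. The ratio of Ctdsp2 to Ctdsp1 reads was 0.865, 0.829 and 0.805 in the controls and 3.08, 3.11 and 3.07 with miR-182-5p. The share of Ctdspl fell from 15.5% ± 0.276 to 9.25% ± 0.179 (SD, n = 3). Each of the 4 shares reached the exact permutation minimum of p = 0.1, as any share does when the groups do not overlap. The shares are parts of the same sum, so they are not separate tests. That of Ctdspl2 rose from 6.42% to 7.77% though its level did not pass. The summed level of the 4 genes was 305 ± 6.01 CPM in the controls and 273.5 ± 1.96 CPM with miR-182-5p, a log2 ratio of -0.16. Per length, summed RPKM (CPM per kilobase of the longest coding transcript) was 81.8 ± 1.36 against 64.6 ± 0.430.

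**Figure D3:**
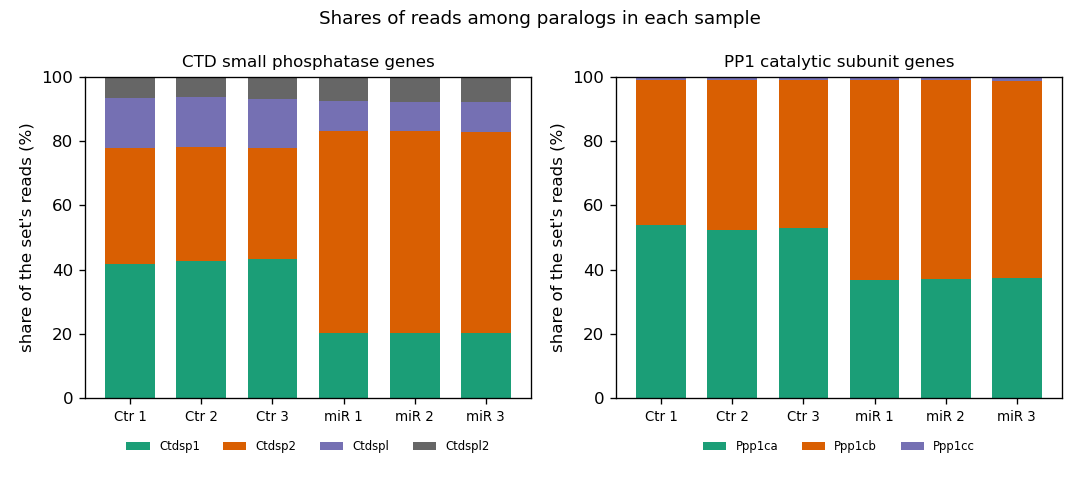
Share of reads (y axis, percent) that each paralog took in each of the 3 control (Ctr) and 3 miR-182-5p (miR) samples, for the Ctdsp genes (left) and the PP1 catalytic subunit genes (right). Ctdsp2 goes from 34.8% to 36.2% of the Ctdsp reads in the controls to 62.4% to 62.9%, and Ppp1cb from 45.3% to 46.7% of the PP1 reads to 61.7% to 62.2%.

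Ctdsp1, Ctdsp2 and Ctdspl are also the host genes of the miR-26 family, a microRNA family known for acting with its hosts and studied in fat cell differentiation. The RefSeq mature sequences (GRCm38.p6) are shown because 3 members that moved apart carry almost the same product, with the seed in capitals.
mmu-miR-26b-5p, within Ctdsp1, chr1:74394324-74394344, plus strand: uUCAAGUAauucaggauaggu
mmu-miR-26a-5p, within Ctdspl, chr9:119031811-119031832, plus strand, and within Ctdsp2, chr10:126995543-126995564, plus strand: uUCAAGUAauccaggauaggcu
Mir26b and Mir26a-1 lie in introns of all annotated transcripts of Ctdsp1 and Ctdspl. Mir26a-2 lies in an intron of the coding transcript of Ctdsp2 that spans it and in an exon of another transcript. Reads on these hairpin genes were 0 to 3 per sample, so the host transcripts changed but nothing can be read about the mature microRNAs. The host reads were split 45.5%, 37.9% and 16.6% among Ctdsp1, Ctdsp2 and Ctdspl on average in the controls, and 22.01%, 67.96% and 10.03% with miR-182-5p.

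Of the 11 catalytic subunits tested, PP1 alpha was the one called changed (9.09%, against 7.45% of all genes). By the adjusted p alone 4 rose and 1 fell, a share of 45.45% against 46.7% of all genes. The groups did not overlap in 45.45% of the catalytic genes, against 54.8% of all genes, so these shares were near or below those of all genes. Ppp1ca (chr19:4192065-4195420) had 7134, 7388 and 7156 reads in the controls and 4983, 4603 and 4907 with miR-182-5p, and all 3 treated samples lay below the controls. Its level fell from 279 ± 4.47 to 173 ± 2.11 CPM (SD, n = 3), a log2 fold change of -0.69 ± 0.027 with an adjusted p of 1.40e-10. Antisense exons of Rad9a and AC109138.6 cover 416 of its 2520 exon bases, and use of strand in counting is not given in the sources used here, so reads of those genes could be counted with it. Its 3′-UTR holds no seed match.

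The paralog Ppp1cb, the catalytic subunit of myosin phosphatase, rose. It had 5997, 6587 and 6255 reads against 8396, 7756 and 8125, with no overlap between groups, and a log2 fold change of 0.26 ± 0.031 (adjusted p = 1.04e-05). Of its 10913 exon bases, 1908 are shared with the overlapping gene Gm43312. The least abundant paralog, Ppp1cc, had 120, 120 and 105 reads against 120, 106 and 144, and its log2 fold change of -0.01 ± 0.126 did not pass. Ppp1ca therefore went from 53.8%, 52.4% and 52.9% of the PP1 catalytic reads to 36.9%, 36.9% and 37.2%, and Ppp1cb from 45.3%, 46.7% and 46.3% to 62.2%, 62.2% and 61.7%. The larger share passed from alpha to beta in reads (exact permutation p = 0.1, the smallest possible, for each of these linked shares). Per length it did not, and Ppp1ca stayed ahead at 117.5 ± 1.43 RPKM against 48.6 ± 0.647 RPKM for Ppp1cb. Summed over the 3 genes, the level was 526 ± 11.9 CPM in the controls and 467 ± 5.38 CPM with miR-182-5p, and per length 232 ± 4.14 against 168 ± 1.95 RPKM.

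Both PP2A catalytic subunits rose by small amounts. Ppp2ca had 5611, 6036 and 5990 reads against 8072, 7271 and 7671, a log2 fold change of 0.28 ± 0.028 (adjusted p = 2.62e-06), and Ppp2cb had 1450, 1594 and 1609 against 1978, 1739 and 1833, a log2 fold change of 0.15 ± 0.041 (adjusted p = 0.00932). Neither pair of groups overlapped in CPM, and together the genes went from 286.9 ± 8.24 to 341 ± 3.92 CPM. For Ppp2ca, antisense genes cover 3093 of 7490 exon bases, so the same limit on strand applies. Ppp5c, a phosphatase bound to chaperones through its tetratricopeptide repeats, rose by 0.16 ± 0.039 on the log2 scale (adjusted p = 0.00420).

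The remaining catalytic genes did not pass the test. For calcineurin A the log2 fold changes were 0.05 ± 0.036 (Ppp3ca), 0.01 ± 0.038 (Ppp3cb) and 0.06 ± 0.066 (Ppp3cc), and for the PP4 and PP6 catalytic subunits 0.01 ± 0.035 (Ppp4c) and -0.02 ± 0.045 (Ppp6c). CPM values of the groups overlapped for all 5. The shares of the 3 calcineurin A genes also overlapped, with Ppp3ca at 46.4% ± 1.60 against 47.0% ± 1.23 (exact permutation p = 0.7).

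Compared per length in the control samples, Ppp1ca was the highest of the catalytic genes, at 189.5 ± 3.03 RPKM. Ppp4c followed at 52.3 ± 1.09, then Ppp2cb at 40.8 ± 1.73 and Ppp1cb at 40.7 ± 1.45, a pair that did not differ beyond its spread. Ppp2ca stood at 32.0 ± 0.811, Ppp5c at 27.7 ± 0.297, Ppp3cb at 22.5 ± 1.15, Ppp3ca at 17.9 ± 0.312, Ppp6c at 11.98 ± 0.0655, Ppp3cc at 6.27 ± 0.214 and Ppp1cc at 1.86 ± 0.155 RPKM. The order within the middle depends on the length used, since with the union of all exons Ppp4c dropped to 17.1 RPKM, below Ppp2cb, Ppp2ca, Ppp1cb and Ppp5c, while Ppp1ca stayed first at 110.8 and Ppp1cc last at 1.30.

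**Figure D4:**
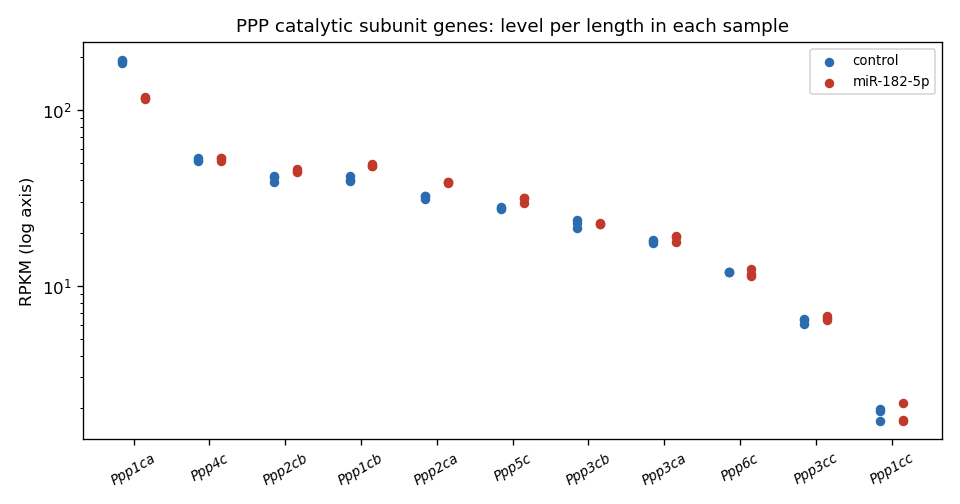
Level per length in RPKM (y axis, log scale) of the 11 PPP catalytic subunit genes, with 1 point for each of the 3 control (blue) and 3 miR-182-5p (red) samples. Ppp1ca drops from 189.5 to 117.5 RPKM on average and is still the highest, and the other genes shift little.

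The regulatory subunits of PP1 showed 3 called members among 21 tested (1 higher, 2 lower), or 14.3% against 7.45% of all genes. The 1 called higher, Ppp1r3a, was tested only because of its reads in the treated samples, as given below. By the adjusted p alone 6 rose, 4 fell and 11 did not pass, with a median log2 fold change of 0.07. The share passing was 47.6%, against 46.7% of all genes, and by DESeq2 6 rose and 2 fell. The pair called lower act on cAMP and glycogen signaling. Ppp1r1a (chr15:103530279-103538003) encodes inhibitor-1, which blocks PP1 once protein kinase A has phosphorylated it. It had 451, 494 and 414 reads in the controls and 216, 219 and 263 with miR-182-5p, no control sample being as low as any treated one. Its log2 fold change was -1.07 ± 0.091 with an adjusted p of 3.93e-07, and its short 3′-UTR holds the 8-base match printed above.

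The Ppp1r3 genes encode the subunits that bring PP1 to glycogen, and they did not move together. Ppp1r3c (chr19:36731731-36736653), known as PTG, had 827, 906 and 744 reads against 462, 510 and 564, with the groups apart, and fell by 0.80 ± 0.087 on the log2 scale (adjusted p = 4.42e-06). Ppp1r3b, far more abundant at 4769, 5236 and 4670 reads against 4291, 4463 and 5194, fell by 0.18 ± 0.062 (adjusted p = 0.0288) with overlapping values. Ppp1r3d had 515, 533 and 584 reads against 664, 709 and 705 and rose by 0.24 ± 0.068 (adjusted p = 0.00973). For Ppp1r3e, with 156 to 173 reads against 199 to 216, the difference of 0.20 ± 0.086 did not pass (adjusted p = 0.0670).

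Ppp1r3a (chr6:14713977-14755274), the glycogen-targeting subunit best known from skeletal muscle, was called higher at the edge of detection. It had 6, 11 and 11 reads in the controls and 28, 24 and 27 with miR-182-5p, which do not overlap. The read filter asks for about 10 reads in at least 3 samples, which the controls alone did not reach. Ppp1r3a was thus tested only because of the treated samples, where it was high, so its call and the missing overlap carry little weight. The log2 fold change was 1.38 ± 0.28 with an adjusted p of 0.00121, at 0.359 ± 0.107 CPM against 0.942 ± 0.0271 CPM. Per length it was the least abundant member tested, at 0.0516 RPKM in the controls, and a filter asking for at least 10 reads in every sample removes it from the test. Of the 3 skeletal muscle markers tested, Acta1 rose from 18.4 to 30.6 CPM and carried most of their sum, Actn3 was called lower at a log2 fold change of -0.73 (adjusted p = 0.000595) and Tnnt3, at -0.14, did not pass, and their part in this result was not tested.

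The Ppp1r12 genes encode subunits that direct PP1 to myosin. Ppp1r12a (MYPT1) had 2041, 1958 and 2162 reads against 2630, 2459 and 2582 and rose by 0.21 ± 0.039 on the log2 scale (adjusted p = 0.000517), while Ppp1r12b rose by 0.26 ± 0.083 (adjusted p = 0.0177) with overlapping values and Ppp1r12c, at 0.04 ± 0.041, did not pass. The related Ppp1r16a had 727, 670 and 713 reads against 985, 970 and 997, the groups being clearly apart, and rose by 0.38 ± 0.055 (adjusted p = 6.96e-05). Of the smooth muscle markers, Acta2, Tagln and Cnn1 were also higher in the treated samples and Myh11 did not pass, by the values given above. The part of these markers was not tested. Of the nuclear and inhibitory subunits, Ppp1r10 (PNUTS) rose by 0.14 ± 0.053 (adjusted p = 0.0423) and Ppp1r11 (inhibitor-3) fell by 0.17 ± 0.053 (adjusted p = 0.0182), whereas Ppp1r2 (inhibitor-2), Ppp1r7 and Ppp1r8 did not pass, at -0.12, -0.04 and 0.11. Ppp1r15b, which directs PP1 to the translation factor eIF2 alpha, had 4659 to 5122 reads against 5281 to 5793 and a log2 fold change of 0.07 ± 0.031 (adjusted p = 0.0750).

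Of 12 PP2A regulatory subunits tested, 0 were called by edgeR, DESeq2 or limma. By the adjusted p alone 2 rose, 4 fell and 6 did not pass (3 higher and 4 lower at an unadjusted p under 0.05), and log2 fold changes stayed between -0.25 and 0.15. The share passing was 50%, against 46.7% of all genes, and by DESeq2 2 rose and 3 fell. The scaffold genes were among the most abundant, Ppp2r1a at 101.3 ± 2.43 and Ppp2r1b at 53.5 ± 0.718 RPKM in the controls. Ppp2r1a had 6351, 6406 and 6210 reads against 6333, 6052 and 6370 and fell by 0.12 ± 0.031 (adjusted p = 0.00426), and Ppp2r1b rose by 0.09 ± 0.035 (adjusted p = 0.0387), with antisense exons of Sik2 over part of it. The substrate-selecting B56 subunits went both ways. Ppp2r5d fell by 0.25 ± 0.036 (adjusted p = 5.42e-05) with 2266, 2397 and 2364 reads against 2130, 2024 and 2218, and Ppp2r5a fell by 0.22 ± 0.045 (adjusted p = 0.00108). Ppp2r5b rose by 0.15 ± 0.044 (adjusted p = 0.0114), and Ppp2r5c and Ppp2r5e were at -0.02 and -0.01. Ppp2r4, the activator also called Ptpa, had a log2 fold change of 0.02 ± 0.029.

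Calcineurin changed in its regulatory subunit. Ppp3r1 (chr11:17159263-17200375) encodes calcineurin B, the calcium-binding subunit, and its 3′-UTR holds both a 7-base and an 8-base match. It had 3250, 3486 and 3732 reads in the controls and 2584, 2326 and 2374 with miR-182-5p, and the lowest control sample was above the highest treated one. It fell from 135 ± 7.73 to 87.0 ± 2.49 CPM (SD, n = 3), a log2 fold change of -0.63 ± 0.040 with an adjusted p of 2.02e-08. Wdr92 shares 462 of its 3228 exon bases on the same strand. The other subunits of the group, which serve PP4 and PP6, differed little. Ppp4r1 rose by 0.19 ± 0.036 (adjusted p = 0.000723) and Ppp6r3 by 0.09 ± 0.032 (adjusted p = 0.0293), and Ppp4r2, Ppp4r4, Ppp6r1 and Ppp6r2 did not pass. Ppp4r2 holds an 8-base match as well, and had 792, 929 and 909 reads against 997, 887 and 928 with a log2 fold change of -0.01 ± 0.055.

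Of the 9 MAP kinase phosphatases tested, 4 rose and 2 fell by the adjusted p, and Dusp8 was called. Thus 66.7% passed and 11.1% were called, against 46.7% and 7.45% of all genes, and by DESeq2 3 rose and 2 fell. Dusp8 (chr7:142079490-142095843), which acts on JNK and p38, had 257, 268 and 260 reads in the controls and 484, 472 and 545 with miR-182-5p. Every treated sample was well above every control. The log2 fold change was 0.83 ± 0.072 with an adjusted p of 5.16e-07, and its 3′-UTR holds the 7-base match printed above. Dusp16 (MKP-7), another JNK phosphatase, rose by 0.27 ± 0.054 (adjusted p = 0.000897), with 689, 673 and 741 reads against 948, 899 and 891.

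The ERK-directed and inducible members differed among themselves. Dusp4 (MKP-2), a nuclear phosphatase and the most abundant of the group, had 2610, 2748 and 2659 reads against 2151, 1975 and 2179, with the groups apart, and fell by 0.46 ± 0.033 (adjusted p = 6.78e-08). Dusp1 (MKP-1), an immediate early gene, fell by 0.15 ± 0.049 (adjusted p = 0.0237). The cytoplasmic ERK phosphatases Dusp6 (MKP-3) and Dusp7 rose, by 0.26 ± 0.076 (adjusted p = 0.0115) and 0.22 ± 0.061 (adjusted p = 0.00966). Dusp6 had 224, 223 and 248 reads against 314, 275 and 310, and Dusp7 had 575, 509 and 564 against 713, 643 and 710. Dusp5 and Dusp10 did not pass, at -0.15 ± 0.158 and 0.02 ± 0.055. Dusp9 had only 24, 10 and 17 reads against 24, 24 and 34, and its log2 fold change of 0.57 ± 0.302 did not pass either (adjusted p = 0.139).

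Among the other Dusp genes, 2 of 10 tested rose and 1 fell, the same counts as at an unadjusted p under 0.05. That share was 30%, against 46.7% of all genes, and 0 were called by edgeR, DESeq2 or limma. Dusp3 (VHR), which also acts on ERK and JNK, had 1077, 1198 and 1161 reads against 1752, 1656 and 1827 and rose by 0.50 ± 0.045 (adjusted p = 7.04e-07). Dusp18 had 599, 642 and 575 reads against 839, 816 and 908 and rose by 0.39 ± 0.060 (adjusted p = 0.000109). Dusp22, known from JNK signaling and T cell receptor control, had 703, 767 and 705 reads against 558, 505 and 586 and fell by 0.51 ± 0.058 (adjusted p = 6.79e-06). None of the 3 overlapped between groups, but they are named because they passed the adjusted p. Of the 10 tested, 4 did not overlap (40%), against 54.8% of all genes tested. Dusp11, which acts on the 5′ end of RNA, was the most abundant of the group in reads, with 3557 to 3757 against 3964 to 4171, and did not pass at 0.06 ± 0.031.

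Set side by side, the members with a seed match did not share a direction. The 7-base match, TTGCCAA, was searched on the transcript strand and found in 16 of the 74 members tested (21.6%) and in 1738 of the 12508 genes tested with a 3′-UTR (13.9%). The median 3′-UTR was longer in the 74 members, at 1612.5 bases against 1383.5 in the 12508 genes. The part of length in the shares with a match was not tested. Of these 16 members, 5 rose and 4 fell by the adjusted p, with a median log2 fold change of -0.02 against 0.04 for members without a match. Over all genes the medians were -0.06 with the match and 0.01 without, and of the 1738 genes with the match 622 fell and 324 rose by the adjusted p, with 185 called lower and 25 called higher. The 8-base match, TTGCCAAA, was held by 6 members tested (8.11%, against 5.71% of all genes), namely Ctdsp1, Ppp1r1a, Ppp3r1, Ppp4r2, Dusp11 and Ctdsp2. Their median was -0.32, with 3 called lower and 1 called higher, and the median over the 714 genes with this match was -0.15, with 114 called lower and 6 called higher. Ctdspl, Ppp1ca, Ppp1r3c and Ppp1r3a were called without any match. The mature sequence printed in the study's methods is not the RefSeq miR-182-5p and has another seed, GUAAACA in place of UUGGCAA. The 7-base match to that other seed, TGTTTAC, is not a match to miR-182-5p and was searched as well. It was found in 11 of the members tested (14.9%) and 2111 of all genes (16.9%), with medians of 0.06 and 0.03. A match is a run of letters in an annotated 3′-UTR and does not show binding.

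**Figure D5:**
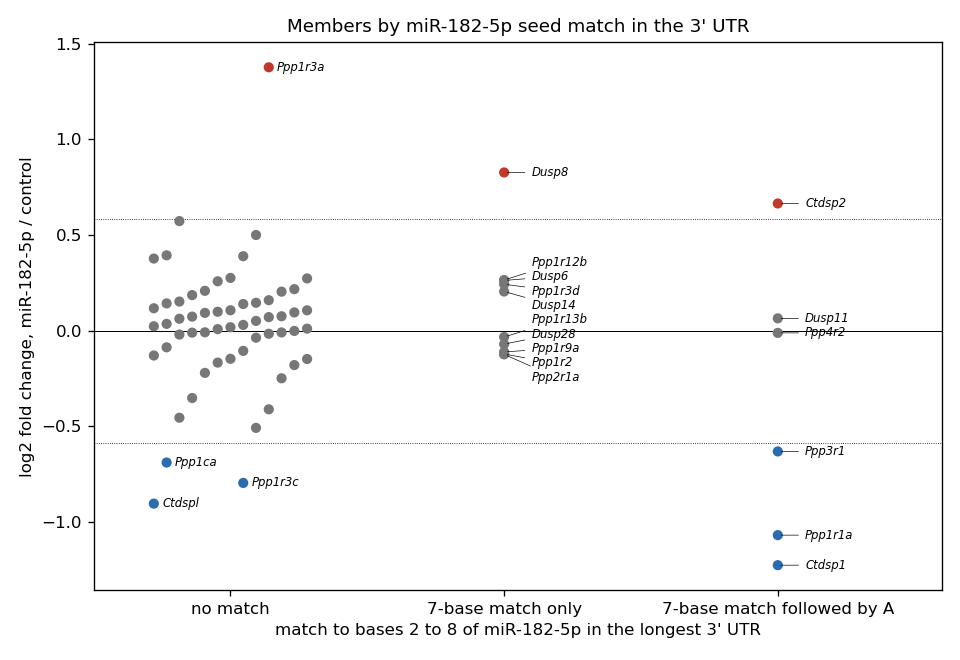
Log2 fold change of miR-182-5p over control (y axis) for the 74 members tested, by the longest seed match in the 3′-UTR (x axis), with members called higher in red and lower in blue and dotted lines at 1.5-fold. The 6 members at the right hold the 8-base match and spread from -1.23 (Ctdsp1) to 0.66 (Ctdsp2), and members without a match also include called genes.

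Genes that act with these phosphatases were described from lists of known partners. In the list of PP2A inhibitors, methylation enzymes and striatins, 7 of 14 genes rose and 1 fell. By DESeq2 and by limma 6 rose and 1 fell. The share passing was 57.1%, against 46.7% of all genes, and 7.14% were called, against 7.45%. The pair that sets methylation of the PP2A catalytic subunit moved in opposite directions. Lcmt1, the methyltransferase, had 489, 593 and 520 reads against 366, 344 and 359 and was called lower at -0.69 ± 0.071 (adjusted p = 2.67e-06), and Ppme1, the methylesterase, had 2775, 2748 and 2758 against 4618, 4071 and 4328 and rose by 0.54 ± 0.029 (adjusted p = 3.89e-09). Neither pair of groups overlapped. In the list 9 of 14 genes did not overlap (64.3%), against 54.8% of all genes tested. Tiprl, which binds PP2A-like catalytic subunits, rose by 0.46 ± 0.062 and the striatin Strn3 by 0.27 ± 0.031. Among calcineurin regulators and NFAT genes, 7 of 11 tested rose and 1 fell, and none was called by edgeR, DESeq2 or limma. The share passing was 72.7%, against 46.7% of all genes, and by DESeq2 6 rose and 1 fell. The leading values were -0.48 ± 0.056 for the inhibitor Rcan2, 0.36 ± 0.057 for Nfatc1 and 0.21 ± 0.034 for the inhibitor Cabin1.

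The kinases that the MAP kinase phosphatases act on changed in part. Of 9 MAP kinases tested, 2 rose and 2 fell, and none was called by edgeR, DESeq2 or limma. The share passing was 44.4%, near the 46.7% of all genes, and by DESeq2 1 rose and 2 fell. Mapk14, p38 alpha, had 2243, 2300 and 2300 reads against 3493, 3097 and 3526 and rose by 0.45 ± 0.032 (adjusted p = 5.38e-08), Mapk12 fell by 0.47 ± 0.115 and Mapk3, which encodes ERK1, fell by 0.13 ± 0.031. Among 7 MAP kinase kinases, Map2k1 rose by 0.42 ± 0.034 (adjusted p = 2.37e-07) and Map2k3 fell by 0.29 ± 0.036. Of 16 ERK-responsive genes and feedback inhibitors, 8 rose and 0 fell by edgeR, DESeq2 and limma (9 and 0 at an unadjusted edgeR p under 0.05), with Fosl1 (0.70 ± 0.133) and Ier3 (0.62 ± 0.050) called higher and Spry1 (0.57 ± 0.035), Spred3 (0.45 ± 0.061) and Fos (0.42 ± 0.064) next. Of that list 50% passed the adjusted p in either direction and 12.5% were called, against 46.7% and 7.45% of all genes, and its median was 0.15 against -0.00.

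Other phosphatase families were called at 1 of 16, 0 of 6 and 1 of 11 genes tested, against 7.45% of all genes. Of 16 metal-dependent PPM phosphatases and relatives tested, 2 rose and 7 fell, with 56.25% passing against 46.7% of all genes. These counts depended on the tool, with 1 higher and 3 lower by DESeq2 and 2 and 7 by limma. Ppm1l was called lower at -0.60 ± 0.107 (adjusted p = 0.000353). Ppm1f was at -0.32 ± 0.039, Ppm1a at -0.19 ± 0.029 and Phlpp1 at 0.22 ± 0.059. Of 6 other genes listed beside the C-terminal domain phosphatases, not all of which need act on that domain, Timm50 alone passed, falling by 0.38 ± 0.046. None of the 6 was called by edgeR, DESeq2 or limma. In the list of slingshot, PRL, CDC14 and CDC25 phosphatases, 1 of 11 rose and 3 fell, with 36.4% passing. By DESeq2 1 rose and 1 fell, and by limma 2 rose and 3 fell. Cdc25c was called lower at 23, 21 and 30 reads against 38, 33 and 43 in the controls (-0.73 ± 0.215, adjusted p = 0.0126, not called by DESeq2). Cdc25b was at -0.38 ± 0.089 and Ptp4a2 at 0.19 ± 0.027. Of the PP1-related and PPP symbols that the rule does not take, Ppp1r13l (iASPP) was called higher, with 321, 347 and 368 reads against 655, 597 and 622 and a log2 fold change of 0.75 ± 0.061 (adjusted p = 2.74e-07), while Ppp1r3g had 1, 1 and 4 reads against 8, 6 and 8 and was not tested.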

How the data were processed

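RNA of 3 control and 3 miR-182-5p samples of primary cultured mouse iWAT was made into poly(A), strand-marking libraries. The deposited files hold unnormalized read counts for each gene symbol, and the submitters' processing notes name bcl2fastq, TopHat2, HTSeq and the mm9 build. Versions, annotation and strand setting are not given in the sources used here. The HTSeq tally lines (12.73% to 13.02% of uniquely aligned reads outside genes, 0.652% to 0.667% ambiguous) were kept out of library sizes, and 19363264 to 21673840 alignments per sample were tallied as not unique, so near-identical paralogs can lose reads.

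The counts were fitted as deposited in R 4.3.3 with edgeR 4.0.16 (TMM, filterByExpr at its default minimum of 10 counts, then glmQLFit with glmQLFTest), with group as the only term, two-sided tests and Benjamini-Hochberg adjustment over 13117 genes. The fold cutoff of 1.5 and the adjusted p under 0.05 follow the study. CPM used TMM-scaled library sizes, and the standard error of a log2 fold change was its size divided by the square root of the test's F value. The fit was tested on simulated data. Replicates differed by more than counting noise (chi-square per degree of freedom of 2.12 to 7.18), so none was taken for a second sequencing of the same library. Separate libraries of the same culture can also differ by more than that, so this cannot show whether the samples came from separate cultures. Alternatives were DESeq2 1.42.0, limma 3.58.1 (voom), other size factors, filters and cutoffs, a replicate block and leaving out each sample. With this filter a gene needed about 10 reads in at least 3 samples to be tested, so some genes with fewer reads in single samples were tested. The fit without the filter held 17382 genes.

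Symbols were matched to GENCODE M21 (GRCm38) for 22171 of 22609 genes, 1924 through an older symbol, and for all 88 members. This gave positions, lengths, overlaps and 3′-UTRs, and no coordinates were moved between builds.

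Members, groups and lists were chosen with earlier results of these data known. The members named are all those called, all catalytic and Ctdsp genes, and in each other group the 3 higher and 3 lower with the smallest adjusted p among those passing. Members with a seed match are counted, and in the partner lists the genes called and up to 3 more are named. Other members, such as Dusp6, Ppp1r3b, Ppp1r3d, Ppp1r12b and Ppp1r10, are named outside this rule as relatives of those and were chosen after their values were seen.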

Additional observations from a re-analysis of the deposited data

How the results depend on the processing

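The log2 fold changes of the 37 members named by rule were recomputed under 13 alternatives (12 for Ppp1r3a), giving 480 values. Of these, 452 kept direction and side of the threshold, 19 kept direction but no longer passed, and 9 changed sign. The 8 called members other than Ppp1r3a were called in all 13 alternatives, leave-one-out fits included, and Ppp1r3a in its 12. It is absent from the fit that asks for at least 10 counts in every sample, which called 8 members. Without control replicate 1, Dusp9 was called too, making 10. Counts of calls moved with the fold cutoff. By the adjusted p alone they were 6124 genes and 36 members (21 higher, 15 lower), and with a 2-fold cutoff 280 genes and 3 members (1 higher, 2 lower). Sign changes were confined to 4 catalytic genes that did not pass in any fit. With upper-quartile factors Ppp3cb came to -0.0043 and Ppp4c to -0.0017. Leaving out 1 sample at a time gave -0.123 to 0.0548 for Ppp1cc, -0.0315 to 0.0414 for Ppp3cb, -0.0014 to 0.0314 for Ppp4c and -0.0537 to 0.0125 for Ppp6c. The cause was not tested. Those that lost the threshold somewhere were Dusp1, Dusp7, Ppp1r11, Ppp2r1b, Ppp2r5b and Ppp6r3, all with a log2 fold change within 0.22 of 0.

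Same-numbered samples of the groups did not deviate together (r = -0.18, -0.0424 and -0.0748). With 3 samples per group the deviations from a group mean are bound to each other, so this cannot show whether the samples were paired. With a replicate block 925 genes were called, 921 of them shared with the fit without it, and the same 9 members. No sample correlated best with its own number. Without miR-182-5p replicate 1, the sample that stood apart from its group, 938 genes were called, 821 of them shared with the fit on all samples. Dixon's test was not applied to groups of 3. Depth limits the 14 untested members, Ppp1r3a, Dusp9 and Dusp15.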
